A study of Mus musculus with 18 samples.

Results

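The protein disulfide isomerases of the endoplasmic reticulum (ER) and their closest partners were described here as 8 genes: P4hb, Pdia3, Pdia4, Pdia5, Pdia6, Txndc5, Creld2 and Prdx4. They were taken by name, and each was found in exactly 1 of the 51499 loci in the expression table. Bulk RNA sequencing had been performed on mouse embryonic fibroblasts (MEFs) labelled Ago2+/+ or Ago2-/-, the latter lacking the Argonaute protein that carries small RNAs to their target transcripts. Cells of each genotype had received DMSO, tunicamycin (a block of N-glycosylation) or thapsigargin (a block of the calcium pump of the ER), at 3 µg/ml and 500 nM for 6 h, and the MEF lines had not been authenticated. The 18 libraries fell into 6 groups of 3: Ago2+/+ DMSO, Ago2+/+ tunicamycin, Ago2+/+ thapsigargin, Ago2-/- DMSO, Ago2-/- tunicamycin and Ago2-/- thapsigargin. The table gave 1 pooled FPKM (fragments normalised to transcript length and library size) per locus and group, so no value has a replicate error and no difference could be tested.

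Protein disulfide isomerases carry thioredoxin-like domains whose paired cysteines form, break and rearrange disulfide bonds in newly made secretory proteins. They are recharged by ER oxidases and peroxidases, which pass oxidizing equivalents to them. Transcription of many of these genes is switched on by the unfolded protein response, in which ATF6 and XBP1 act on ER stress elements in promoters. Fibroblasts depend on this machinery for the folding of procollagen.

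Sample titles call the groups AGO2 and DCR1, and the genotype fields of most libraries give these as Ago2-/- and Ago2+/+, the names used here. The level of Ago2 did not follow these names. Ago2 itself had 22.1, 5.75 and 17.0 FPKM with DMSO, tunicamycin and thapsigargin under the label Ago2+/+, and 5.61, 15.5 and 20.7 FPKM under the label Ago2-/- in the same order. The lowest levels were thus in 1 group of each label, and 4 of the 18 libraries also carry genotype labels that contradict each other. Whether groups were exchanged between names before their values were pooled was not tested, so each group name below stands for a label only. Across the 11929 loci whose mean over groups reached 1 FPKM, the groups fell into 3 closely matching pairs that cross both labels, with Spearman's rho between 0.977 and 0.985 within pairs and between 0.876 and 0.906 for the other 12 pairings. These are Ago2+/+ tunicamycin with Ago2-/- DMSO (the Ago2-low pair), Ago2+/+ thapsigargin with Ago2-/- tunicamycin (the Acta2-high pair), and Ago2+/+ DMSO with Ago2-/- thapsigargin (the remaining pair). Smooth muscle markers separated the Acta2-high pair, with 5 markers summing to 2418 and 1800.5 FPKM there and to 2.49 to 8.996 FPKM elsewhere. Acta2, at 1644 and 1252 FPKM there, with Tagln and Cnn1 carried these sums. Des did not share the rise, with 0.397 and 0.499 FPKM in the Acta2-high pair. It had 2.95 and 2.58 FPKM in the remaining pair and 0.262 and 0.250 FPKM in the Ago2-low pair. Myh11, a defining gene of mature smooth muscle, stayed at or below 0.0730 FPKM in all groups. Of 10 fibroblast markers, 7 reached a mean of 1 FPKM and the 10 summed to between 1597 and 2975 FPKM, but not as 1 set. Vim, the largest part of that sum, had 2634 and 2580.0 FPKM in the Ago2-low pair and 1181 and 952 FPKM in the Acta2-high pair, where Col1a1 had 6.77 and 5.97 and then 521 and 651 FPKM. Thy1 was listed at 0 and Lum lay at or below 0.0138 FPKM. Markers of epithelium and endothelium summed to at most 1.33 and 0.449 FPKM, and those of blood cells to at most 1.93 FPKM. Of the 3 neural markers, only Map2 was detected at a mean of 1 FPKM, and Sox10 lay at or below 0.00361 FPKM while Tubb3 had no row. Map2 was at or below 0.00909 FPKM in the Ago2-low pair and between 12.2 and 23.2 FPKM in the other 4 groups. Every contrast by label below therefore also crosses these pairs, and label, cell state and treatment cannot be told apart. In bulk RNA, fewer cells of a kind and less RNA per cell cannot be told apart either.

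Most of the 8 genes were abundant. By the mean over the 6 groups, Pdia3 ranked 123rd of all loci at 656 FPKM, followed by P4hb at 479, Pdia6 at 436, Pdia4 at 406 and Creld2 at 321 FPKM. Txndc5 at 121 and Prdx4 at 115 FPKM formed a middle tier, and Pdia5 was the scarcest at 24.8 FPKM. With no replicate values, whether neighbours in this order differ beyond their spread is unknown. The spread over groups was widest for the scarcest member and narrowest for 3 of the 4 most abundant. The ratio of highest to lowest group was 4.97 for Pdia5, 4.57 for Creld2, 2.25 for Txndc5, 2.03 for P4hb and 1.83 for Prdx4, but only 1.47 for Pdia3, 1.45 for Pdia4 and 1.38 for Pdia6. The median ratio was 1.74 over all 11929 loci, computed after adding 0.1 FPKM, and 1.53 over the 2247 loci whose mean reached 50 FPKM, with the middle 50% of the latter between 1.34 and 1.90. Pdia3, Pdia4 and Pdia6 thus varied less than the median abundant gene, and Pdia5 and Creld2 far more.

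**Figure D1:**
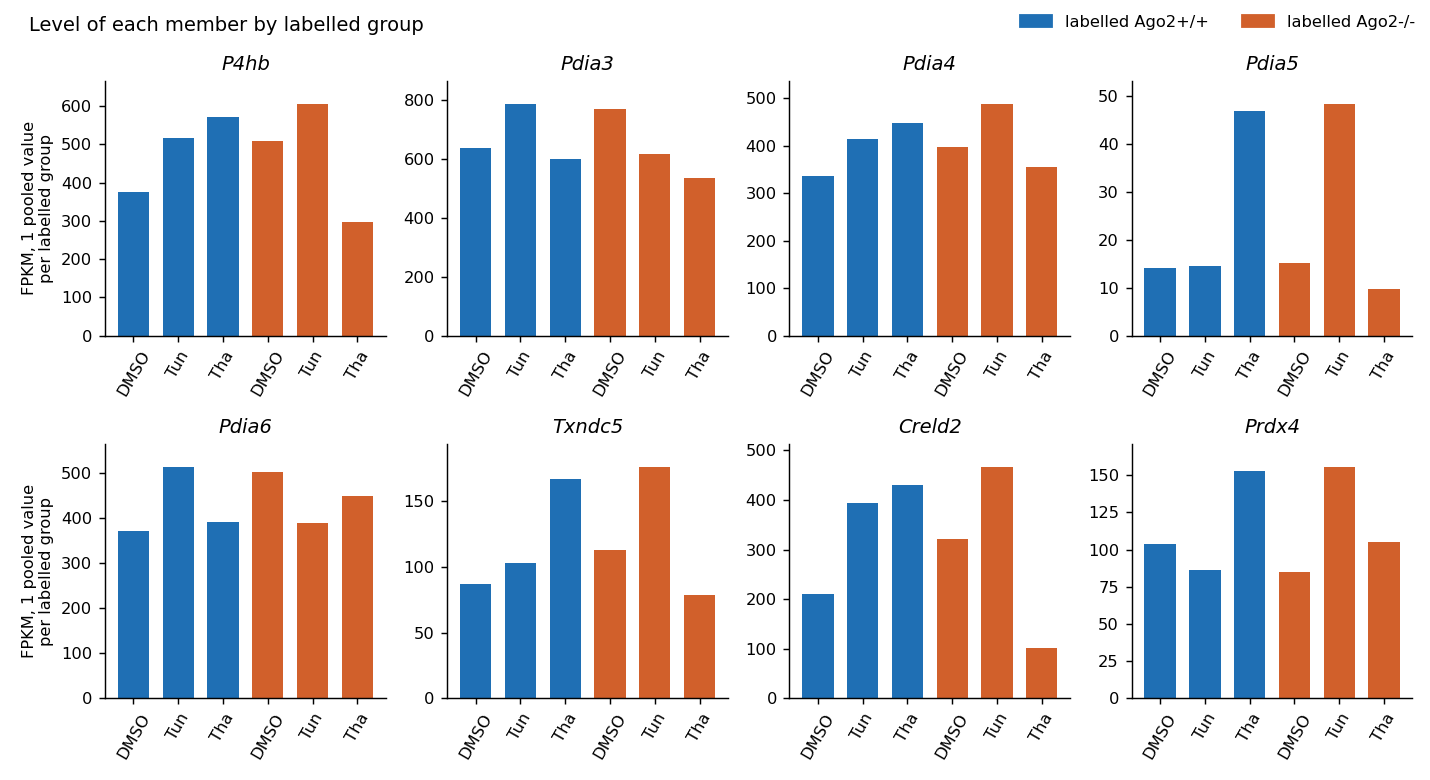
Each panel gives the pooled FPKM of 1 gene in the 6 labelled groups as bars from 0, without error bars because the table holds 1 value per group (Tun, tunicamycin and Tha, thapsigargin). P4hb, Pdia4, Pdia5, Txndc5, Creld2 and Prdx4 are highest in Ago2+/+ thapsigargin and Ago2-/- tunicamycin. Pdia3 and Pdia6 are highest in Ago2+/+ tunicamycin and Ago2-/- DMSO. The lowest value of Creld2, 102 FPKM, is in Ago2-/- thapsigargin.

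Among the core isomerases, P4hb is the archetype of the family and also the structural subunit of collagen prolyl 4-hydroxylase and of the microsomal triglyceride transfer protein. P4hb (ENSMUSG00000025130, chr11:120560298-120573253, GRCm38, minus strand) had 375, 518 and 571 FPKM in the DMSO, tunicamycin and thapsigargin groups labelled Ago2+/+, and 508, 605 and 298 FPKM in the corresponding Ago2-/- groups. The remaining pair held both low values, 375 and 298 FPKM, and the other 4 groups lay between 508 and 605 FPKM.

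Pdia3, also called ERp57, is delivered to glycoproteins by the lectin chaperones calnexin and calreticulin. Pdia3 (ENSMUSG00000027248, chr2:121413775-121438687, plus strand) stood at 638, 785 and 598 FPKM in the Ago2+/+ groups in the same order and at 767, 615 and 534 FPKM in the Ago2-/- groups. Both groups of the Ago2-low pair were above all others. Pdia6, or P5, works with the chaperone BiP (Hspa5) and limits signalling by the stress sensor IRE1. Pdia6 (ENSMUSG00000020571, chr12:17266545-17284770, plus strand) stood at 371, 514 and 391 FPKM in the Ago2+/+ groups and at 502, 389 and 449 FPKM in the Ago2-/- groups. It too was highest in the Ago2-low pair, and the group labelled Ago2-/- thapsigargin came next. Hspa5 shared that peak, with 6746 and 7682 FPKM in the Ago2-low pair and 3677 to 5367 FPKM in the other 4 groups.

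Pdia4, or ERp72, is a larger isomerase that also associates with BiP. Pdia4 (ENSMUSG00000025823, chr6:47796141-47813430, minus strand, host of the microRNA gene Mir704) stood at 335, 415 and 449 FPKM in the Ago2+/+ groups and at 397, 488 and 355 FPKM in the Ago2-/- groups. Its lowest 2 groups formed the remaining pair and its highest 2 the Acta2-high pair. Pdia5, or PDIR, is a less studied isomerase linked to ATF6 activation. Pdia5 (ENSMUSG00000022844, chr16:35397312-35490873, minus strand) stood at 14.2, 14.6 and 46.9 FPKM in the Ago2+/+ groups and at 15.2, 48.3 and 9.72 FPKM in the Ago2-/- groups. Here 2 groups, the Acta2-high pair, were far above the other 4, which spanned 9.72 to 15.2 FPKM.

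Txndc5, or ERp46, introduces disulfides rapidly and is a known factor in collagen folding of activated fibroblasts. Txndc5 (ENSMUSG00000038991, chr13:38500079-38528824, minus strand) stood at 86.9, 103 and 167 FPKM in the Ago2+/+ groups and at 112, 176 and 78.3 FPKM in the Ago2-/- groups. The order of the pairs was the same as for Pdia4, with no overlap between pairs. The pairs are the groups closest over all loci, and how many loci keep them apart in this way was not counted.

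Prdx4 is the peroxiredoxin of the ER, which reduces hydrogen peroxide and hands the oxidizing equivalents to the isomerases. Prdx4 (ENSMUSG00000025289, chrX:155323918-155340754, minus strand) stood at 104, 86.4 and 153 FPKM in the Ago2+/+ groups and at 85.1, 156 and 105 FPKM in the Ago2-/- groups. The 3 pairs formed 3 separate levels, at 85.1 and 86.4, at 104 and 105, and at 153 and 156 FPKM. Creld2 encodes a small secreted ER protein with isomerase-like cysteine motifs and is a well known target of ER stress signalling. Creld2 (ENSMUSG00000023272, chr15:88819646-88826683, plus strand) stood at 211, 394 and 430.0 FPKM in the Ago2+/+ groups and at 321, 467 and 102 FPKM in the Ago2-/- groups. The group labelled Ago2-/- thapsigargin was the lowest, and Ago2+/+ DMSO, its partner in the remaining pair, came next at 2.06 times that level.

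Genes that overlap the members had low levels where they had a row. Pdia3, Pdia6 and Txndc5 overlap oppositely oriented protein-coding genes by 18, 50 and 224 bases, and these neighbours (Catsper2, Atp6v1c2 and Bmp6) stayed at or below 2.42, 0.442 and 0.131 FPKM. Txndc5 also overlaps an antisense transcript and a processed pseudogene that have no row of their own, by 1422 and 780 bases.

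Promoter sequence was examined because Creld2 and Pdia6 are both textbook targets of the unfolded protein response but had unlike patterns here. The ER stress response element (ERSE) was searched as CCAAT, then any 9 bases, then CCACG, and the core of the XBP1 element (UPRE) as TGACGTGG, on both strands. The windows ran from 250 bases before to 50 bases after each RefSeq start of transcription (GRCm38.p6), and 10 windows matched the 8 genes, 3 of them for Txndc5. A full ERSE lay in 2 of the 10 windows, those of Creld2 and Pdia6, and in 0.119% of all 32851 windows of the same length. TGACGTGG lay in 1 of the 10, an alternative start of Txndc5, and in 0.676% of all windows. CCAAT alone was in 6 and CCACG alone in 8 of the 10 windows, against 37.4% and 32.8% of all windows. Each ERSE contains 1 match of either part, and TGACGTGG contains CGTGG, the reverse complement of CCACG. These 5 stretches are shown for the members with the fullest matches (Creld2, Pdia6 and Txndc5), for P4hb, and for Pdia5, the member with the widest range. Capitals mark TGACGTGG and each match of CCAAT or of the second ERSE part on either strand, so that a reverse match of CCAAT reads as ATTGG. All are written 5′ to 3′ on the strand of the gene.
Creld2 (chr15:88819475-88819583, plus strand): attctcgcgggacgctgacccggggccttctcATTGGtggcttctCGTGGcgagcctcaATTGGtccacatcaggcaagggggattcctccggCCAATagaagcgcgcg
Pdia6 (chr12:17266446-17266554, plus strand): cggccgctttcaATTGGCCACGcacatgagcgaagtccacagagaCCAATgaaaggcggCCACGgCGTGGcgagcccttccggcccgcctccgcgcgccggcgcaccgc
P4hb (chr11:120573207-120573312, minus strand): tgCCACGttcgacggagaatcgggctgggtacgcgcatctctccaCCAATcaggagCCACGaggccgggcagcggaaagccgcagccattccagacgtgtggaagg
Txndc5 (chr13:38528000-38528097, minus strand): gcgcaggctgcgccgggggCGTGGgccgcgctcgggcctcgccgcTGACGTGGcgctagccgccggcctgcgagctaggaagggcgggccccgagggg
Pdia5 (chr16:35490831-35490925, minus strand): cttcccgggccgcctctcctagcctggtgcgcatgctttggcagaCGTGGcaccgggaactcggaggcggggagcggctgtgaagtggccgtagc
In Creld2 the ERSE ran from 126 to 108 bases before the start in reverse orientation (CGTGG, 9 bases, ATTGG), and in Pdia6 from 98 to 80 bases before it in forward orientation. P4hb holds CCAAT and CCACG 6 bases apart across its start, a spacing noticed only on reading the sequence and present in 0.0578% of all windows. Pdia5 had a single CCACG match, 7 to 3 bases before its start. Pdia3 had no CCACG match, which says only that these letters are not in its window.

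**Figure D2:**
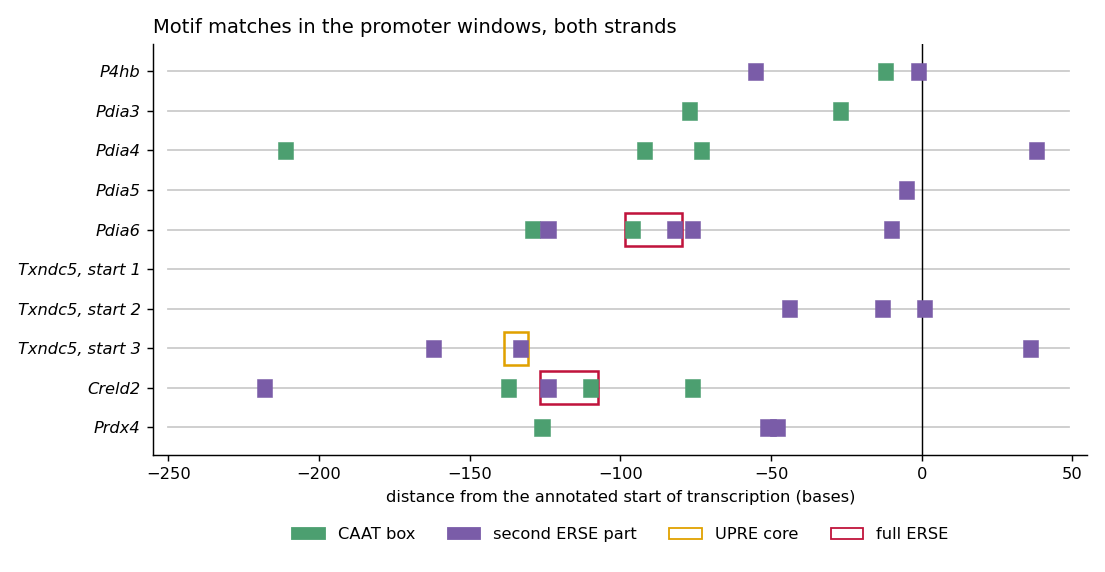
Motif matches on either strand are placed by distance in bases from the annotated start (vertical line) for the 10 promoter windows of the 8 genes, with filled boxes for the CAAT box (CCAAT) and the second part of the ERSE (CCACG) and open boxes for the full ERSE and the UPRE core. Full ERSE boxes appear for Pdia6 and Creld2, and the UPRE core for the third start of Txndc5.

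Levels with tunicamycin and thapsigargin were compared with DMSO under each genotype label, as log2(FPKM + 0.1) differences, and a difference past 1.5-fold was counted. Under the label Ago2+/+, tunicamycin went with higher levels of 7 of 8 members, with a median log2 difference of 0.30, against 0.01 over all loci. Past 1.5-fold there was 1 of 8 members, Creld2 at 1.87-fold (log2 0.90), and 33.4% of all loci passed in either direction. P4hb and Pdia6 followed at log2 0.47 each, and Prdx4 alone was lower, at -0.27. Among loci whose mean reached 50 FPKM, 20.6% passed. In the contrasts with DMSO that follow, this share was 19.7% for thapsigargin under Ago2+/+. Under Ago2-/- it was 29.7% for tunicamycin and 23.0% for thapsigargin.

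Of the contrasts with DMSO, thapsigargin under the label Ago2+/+ had the most members past the fold. Past 1.5-fold were 4 of 8 members, all higher, against 31.9% of loci: Pdia5 at 3.31-fold (log2 1.72), Creld2 at 2.04-fold (1.03), Txndc5 (log2 0.94) and P4hb (0.61). Prdx4 at 0.56 and Pdia4 at 0.42 were also higher, while Pdia6 at 0.08 and Pdia3 at -0.09 were near 0. The members' median was 0.58. In this contrast the 5 smooth muscle markers summed to 6.91 FPKM in DMSO and 2418 FPKM in thapsigargin, and their part in the result was not tested.

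Under the label Ago2-/-, members differed in both directions between tunicamycin and DMSO. Pdia5 was 3.18-fold higher (log2 1.66), Prdx4 was higher by 0.87 and Txndc5 by 0.65 on the log2 scale, which made 3 of 8 members past the fold against 41.2% of loci. Creld2 at 0.54, Pdia4 at 0.30 and P4hb at 0.25 were higher within the fold, and Pdia3 at -0.32 and Pdia6 at -0.37 were lower. The same marker sum was 2.60 FPKM in DMSO and 1800.5 FPKM in tunicamycin.

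Thapsigargin under the label Ago2-/- went the other way. Lower levels were found for 7 of 8 members, with a median of -0.52, and 3 of 8 lay past 1.5-fold, all lower, against 35.7% of loci. Creld2 was 3.14-fold lower (log2 -1.65), P4hb 1.71-fold lower (-0.77) and Pdia5 1.56-fold lower (-0.64). Pdia3 and Txndc5 followed at -0.52 each, and Prdx4 was the exception at 0.30. Hspa5, the general marker of ER stress, had 7682 FPKM in the DMSO group and 3677 FPKM in the thapsigargin group of this contrast. It had 5155 FPKM in the tunicamycin group under the same label. Under Ago2+/+, Hspa5 had 4808 FPKM with DMSO, 6746 FPKM with tunicamycin and 5367 FPKM with thapsigargin.

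**Figure D3:**
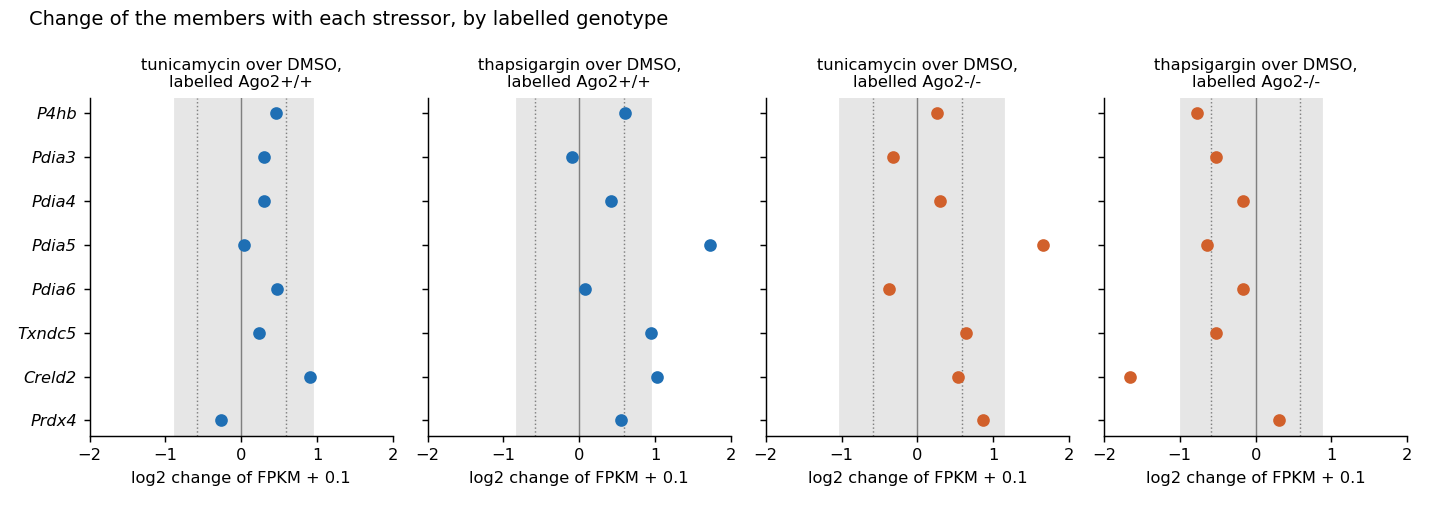
Points give the log2 change of FPKM + 0.1 of each gene for a stressor over DMSO, in blue under the label Ago2+/+ and in orange under Ago2-/-, with the shaded band from the 10th to the 90th percentile of all 11929 loci and dotted lines at 1.5-fold. Pdia5 lies outside the band to the right at 1.72 and 1.66, and Creld2 just to the right at 1.03 for thapsigargin under Ago2+/+ and to the left at -1.65 for thapsigargin under Ago2-/-.

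The study's design compares the genotypes, but Ago2 RNA was lower under the label Ago2-/- only in DMSO, at 5.61 against 22.1 FPKM. It was higher under that label in tunicamycin, at 15.5 against 5.75 FPKM, and in thapsigargin, at 20.7 against 17.0 FPKM. The contrasts below are therefore between labels, and Ago2 RNA did not differ in the same direction in all of them. In DMSO, 7 of 8 members were higher under the label Ago2-/-, with a median of 0.32, and only Creld2 passed 1.5-fold, at 1.53-fold (log2 0.61), against 33.9% of loci. P4hb and Pdia6 differed by 0.44 each and Prdx4 by -0.29. In tunicamycin, 3 of 8 members passed, against 40.2% of loci, and all were higher under the label Ago2-/-: Pdia5 at 3.30-fold (log2 1.72), Prdx4 (0.85) and Txndc5 (0.78). Pdia6 at -0.40 and Pdia3 at -0.35 pointed down. In thapsigargin, 4 of 8 passed, against 32.6% of loci, and all were lower under the label Ago2-/-: Pdia5 at -2.26, Creld2 at -2.07, Txndc5 at -1.09 and P4hb at -0.94 on the log2 scale. Pdia6 was the only member above 0 there, at 0.20. No member thus kept a difference past 1.5-fold in 1 direction over the 3 treatments. How many of all loci did so was not counted, so this is not shown to be particular to the members. Among loci whose mean reached 50 FPKM, 20.2% passed in DMSO, 28.1% in tunicamycin and 21.1% in thapsigargin. These contrasts and those with DMSO share groups and are given side by side only.

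Differences within the closely matching pairs were counted in the same way. Between Ago2+/+ tunicamycin and Ago2-/- DMSO, 0 of 8 members passed 1.5-fold, against 3.4% of loci, and the widest difference was Creld2 at 1.23 times the level in Ago2-/- DMSO (log2 0.30). Between Ago2-/- tunicamycin and Ago2+/+ thapsigargin, 0 of 8 passed, against 4.39% of loci, and all 8 lay within 0.12 on the log2 scale. Between Ago2+/+ DMSO and Ago2-/- thapsigargin, 1 of 8 passed, against 9.3% of loci. That gene was Creld2, 2.06-fold higher in Ago2+/+ DMSO (log2 1.04). In the same pair Pdia5 differed by 0.54, P4hb by 0.33 and Pdia3 by 0.26, all higher in Ago2+/+ DMSO, and Pdia6 by -0.27. Among the 2247 loci whose mean reached 50 FPKM, a level that 7 of the members exceed, 3.69% passed 1.5-fold in this pair.

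Over the other 12 pairings the median size of the log2 difference was 1.67 for Pdia5, 0.97 for Creld2, 0.67 for Txndc5, 0.56 for Prdx4 and 0.54 for P4hb. Pdia3 at 0.31, Pdia6 at 0.28 and Pdia4 at 0.27 had the smallest. Among the 8 members Prdx4 showed the clearest separation, since its differences within pairs were at most 0.03 and those outside at least 0.27. How many of all loci separate as clearly was not counted. For Creld2 alone, the largest difference within a pair, 1.04, exceeded the median outside.

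**Figure D4:**
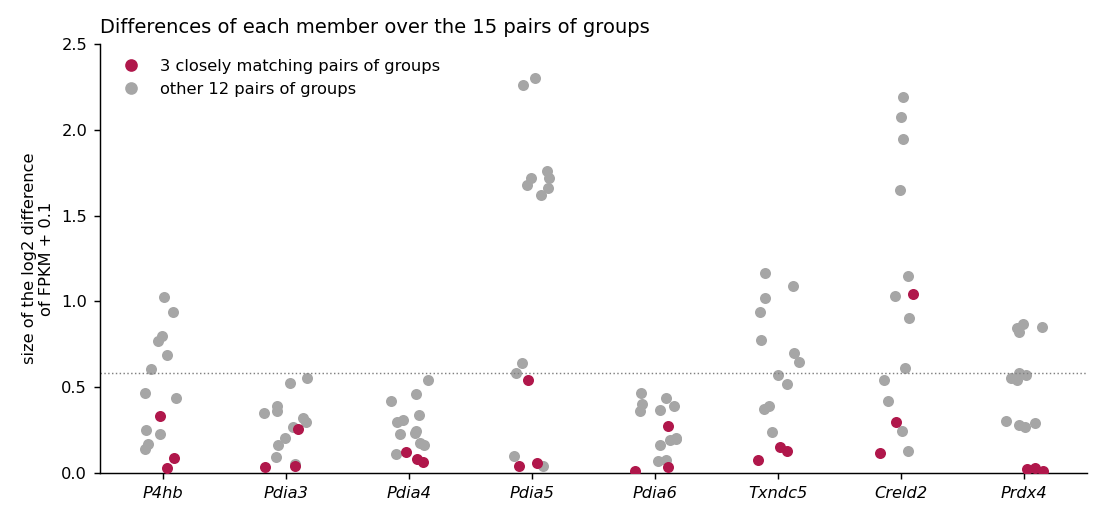
Points give the size of the log2 difference of FPKM + 0.1 for each gene over all 15 pairs of groups, in red for the 3 closely matching pairs and grey for the other 12, spread sideways for legibility, with a dotted line at 1.5-fold. Among the red points Creld2 is the only one past the line, at 1.04.

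Other genes of oxidative folding were followed in 4 lists of 39 genes, of which 33 reached a mean of 1 FPKM. Each count past 1.5-fold is followed by the share of all loci past it in either direction. Under the label Ago2+/+, 3 were higher and 8 lower for tunicamycin (33.4%), and 10 higher and 3 lower for thapsigargin (31.9%). Under Ago2-/-, 13 were higher and 3 lower for tunicamycin (41.2%), and 5 higher and 5 lower for thapsigargin (35.7%). For the label Ago2-/- over Ago2+/+ the counts were 3 higher and 6 lower in DMSO (33.9%), 14 and 1 in tunicamycin (40.2%), and 2 and 13 in thapsigargin (32.6%). None of the 33 passed in the Ago2-low pair (3.4%) or the Acta2-high pair (4.39%), and 5 did in the remaining pair (9.3%).

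Of 15 other isomerases listed, 10 reached a mean of 1 FPKM. With tunicamycin, 0 were higher and 2 lower past 1.5-fold under Ago2+/+ (33.4% of all loci in either direction), and 2 higher and 0 lower under Ago2-/- (41.2%). With thapsigargin, 2 were higher and 2 lower under Ago2+/+ (31.9%), and 1 higher and 1 lower under Ago2-/- (35.7%). For the label Ago2-/- over Ago2+/+, 0 were higher and 1 lower in DMSO (33.9%), 2 higher and 0 lower in tunicamycin (40.2%), and 0 higher and 3 lower in thapsigargin (32.6%). Txndc11, a membrane thioredoxin-like protein, stood at 18.9, 27.9 and 35.7 FPKM in the Ago2+/+ groups and at 26.1, 37.4 and 11.6 FPKM in the Ago2-/- groups. Its lowest group was again Ago2-/- thapsigargin, as for Creld2. Txndc16 spanned 1.33 to 4.80 FPKM and Erp44, which retrieves unassembled proteins to the ER, 21.5 to 40.1 FPKM, each highest in Ago2-/- tunicamycin. Tmx4, a membrane-bound relative, went from 5.78 to 10.02 FPKM and was highest in Ago2+/+ DMSO. The pancreas and testis isomerases Pdia2 and Pdilt had means below 1 FPKM.

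The list of oxidases and peroxidases also holds Creld1. Apart from Gpx7, the log2 range over groups in this list ran from 0.24 for Vkorc1l1 to 4.396 for Creld1. Gpx7, an ER glutathione peroxidase that oxidizes isomerases, was listed at 0 in 4 groups and at 5.28 and 6.64 FPKM in the Acta2-high pair. Creld1, the membrane-bound relative of Creld2, stood at 19.9 and 21.1 FPKM in that pair and at 0.909 to 2.57 FPKM elsewhere. Qsox1, a sulfhydryl oxidase of the secretory pathway, had 72.7 and 67.1 FPKM there and 8.40 to 25.05 FPKM in the other 4 groups. All members but Pdia3 and Pdia6 have their highest 2 groups in that same pair. Ero1lb, the beta form of the main ER oxidase, went from 6.13 to 16.0 FPKM, while Ero1l went from 51.7 to 85.8 FPKM and was lowest in the Acta2-high pair. Gpx8, by contrast, was highest in the Ago2-low pair at 71.7 and 83.8 FPKM, where Pdia3 and Pdia6 also peaked.

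All 6 listed ER selenoproteins had a mean of 1 FPKM or more. With tunicamycin, 0 were higher and 1 lower past the fold under Ago2+/+ (33.4% of all loci), and 3 higher and 0 lower under Ago2-/- (41.2%). With thapsigargin, 3 were higher and 0 lower under Ago2+/+ (31.9%), and 1 higher and 2 lower under Ago2-/- (35.7%). For the label Ago2-/- over Ago2+/+, 0 were higher and 1 lower in DMSO (33.9%), 3 higher and 0 lower in tunicamycin (40.2%), and 0 higher and 4 lower in thapsigargin (32.6%), where the median log2 difference was -1.08. Selenok and Selenos, both parts of the machinery that removes misfolded proteins from the ER, were lowest in Ago2-/- thapsigargin at 54.7 and 49.4 FPKM and highest in Ago2-/- tunicamycin at 175 and 124 FPKM. Selenom spanned 17.6 to 80.4 FPKM and Selenon 13.95 to 27.4 FPKM.

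Partners that assemble with P4hb or Pdia3 diverged. The catalytic subunits of collagen prolyl 4-hydroxylase were highest in the Acta2-high pair, with P4ha1 at 64.0 and 75.8, P4ha2 at 45.9 and 49.5 and P4ha3 at 9.04 and 8.31 FPKM. P4ha1 was nearly as high in the remaining pair, at 57.5 and 61.3 FPKM, and lower in the Ago2-low pair, at 22.6 and 27.2 FPKM. Col1a1, which encodes the main substrate of these subunits, reached 521 and 651 FPKM in the Acta2-high pair and 5.97 to 112 FPKM elsewhere. P4hb, their shared subunit, was also highest in that pair but differed by a ratio of 2.03 at most. Mttp, the other partner of P4hb, was lowest there, at 1.07 and 1.19 FPKM, against 3.93 to 4.45 FPKM elsewhere. The lectin chaperones that present substrates to Pdia3 varied little, with Canx between 323 and 391 FPKM and Calr between 1546 and 1871 FPKM. Tapbp, from the same list and in 1 locus with Zbtb22, varied more. It ran from 24.1 FPKM in Ago2+/+ tunicamycin to 69.8 FPKM in Ago2-/- tunicamycin, a log2 range of 1.53.

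**Figure D5:**
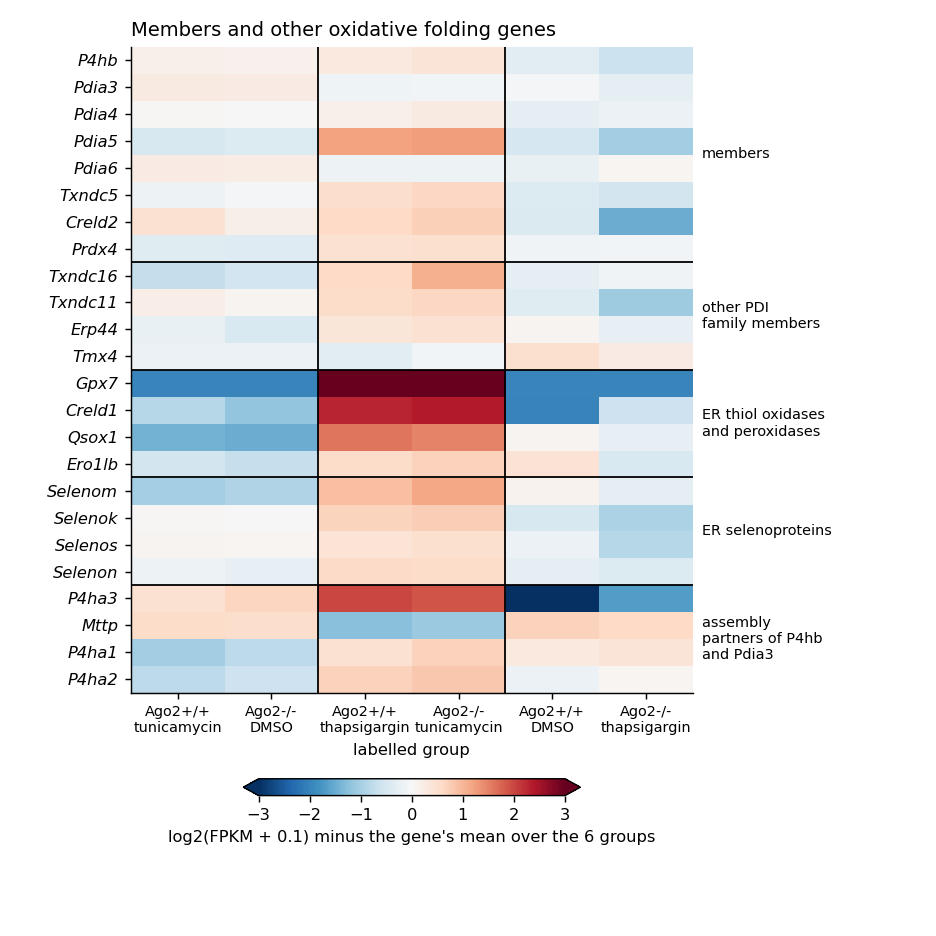
Colour gives log2(FPKM + 0.1) minus the gene's mean over the 6 labelled groups, with columns ordered by closely matching pair (vertical lines) and rows holding the 8 members and, of each of 4 lists, the 4 genes with the widest range. Gpx7, Creld1, Qsox1 and P4ha3 are darkest red in Ago2+/+ thapsigargin and Ago2-/- tunicamycin, as Pdia5 is among the members, and colours saturate at 3 on the scale.

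Patterns over the 6 groups were also compared with 7752 other loci that had at least 5 FPKM in every group and 1 gene name. The measure was the root mean square difference of centred log2 values, which describes 6 values that share the pair structure above. Nearest to Creld2 were Syvn1 at 0.15, the ubiquitin ligase of ER-associated degradation, Dnajc3 at 0.17, an ER co-chaperone, and Phldb2 at 0.20. Syvn1 stood at 61.4, 107 and 121 FPKM in the Ago2+/+ groups and at 94.7, 130 and 37.5 FPKM in the Ago2-/- groups. It was therefore also lowest in Ago2-/- thapsigargin and next lowest in Ago2+/+ DMSO. Nearest to Txndc5 were Stt3a (0.05), a catalytic subunit of the oligosaccharyltransferase, Kdelr2 (0.05), a receptor that returns ER proteins, and Rcn1 (0.06), a calcium-binding ER protein. Pdia5 was nearest to the tubulin genes Tuba1a (0.09) and Tubb2a (0.11) and to Gmppb (0.13), which makes the sugar donor GDP-mannose. For P4hb the nearest were Mapk3, Necap2 and Gorasp2, for Pdia3 Med19, Klhl20 and Tnks1bp1, for Pdia4 Gli3, Rce1 and Cdk7, for Pdia6 Adrm1, Traf3 and Ints10, and for Prdx4 R3hdm2, Trnau1ap and Fen1, all at 0.05 or less. No member was among the 3 nearest loci of another member. The closest by rank was P4hb, which stood 122nd among loci near Creld2 at 0.41. By distance the closest members were Pdia3 and Pdia6, at 0.16. Pearson's r between members over the 6 groups ran from -0.76 for Pdia6 with Prdx4 to 0.99 for Creld2 with P4hb.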

How the data were processed

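The deposited table gave, for each of 15 pairs of the 6 groups, 1 pooled FPKM per group and locus. Per the submitters' processing notes, FastQC 0.11.7, HISAT2 2.1.0, StringTie 1.3.4d, Cuffdiff 2.2.1 and the build GRCm38 were used. The authors pooled the 3 libraries of a group before deposit, so neither counts nor depth are known. Whole reads were not recovered from low values: with the best-fitting step of each group, at most 48.3% lay within 0.1 of a multiple. The 20% expected without steps holds for a step fixed in advance, so it is not a like measure. The authors' fold changes, test statistics, p-values and q-values were not used. The tunicamycin dose and the exposure time came from the study's methods, and groups came from sample titles, with DCR1 read as Ago2+/+ after the genotype fields. Differences were taken as log2(FPKM + 0.1) in Python 3.11.15 with numpy and pandas, and a pseudocount understates changes of low genes. Loci whose mean reached 1 FPKM formed the background, and calls past 1.5-fold were checked on data of known answer. No test was possible. Named genes were the 8 members in every comparison, the 4 listed genes of widest range per list, the 3 loci nearest to each member, and Ago2 and Hspa5. Further list genes and markers were chosen after their values were seen. Members and lists were chosen with earlier results of these data known. Alternatives were another pseudocount, fold, filter and centring. Gene positions are from GENCODE and promoters from RefSeq. Protein sequences were not used here.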

Additional observations from a re-analysis of the deposited data

Results flagged for a closer look

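Under thapsigargin, 3 members moved past 1.5-fold in opposite directions under the 2 genotype labels. With 1 pooled value per group the difference was not tested. Of all loci, 31.9% passed 1.5-fold in either direction under Ago2+/+ and 35.7% under Ago2-/-. How many loci did so in opposite directions was not counted, so the pattern is not shown to be particular to the members. The log2 change over DMSO under the label Ago2-/- minus that under Ago2+/+ was -2.68 for Creld2 (1.03 under Ago2+/+ and -1.65 under Ago2-/-), -2.36 for Pdia5 (1.72 and -0.64) and -1.38 for P4hb (0.61 and -0.77). The 4 groups involved lie in 3 different closely matching pairs, and 2 of them, Ago2+/+ DMSO and Ago2-/- thapsigargin, form 1 pair.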

How the results depend on the processing

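No paired analysis was possible because the table holds 1 pooled value per group, and leaving out a replicate was not run for the same reason. A pseudocount of 1 FPKM, no pseudocount and centring on the median of all loci left each of the 10 counts of members past the fold as given, and the 80 differences of single members shifted by at most 0.10, 0.01 and 0.04 on the log2 scale. Only the fold itself moved counts. In the order tunicamycin and thapsigargin under Ago2+/+, then the same under Ago2-/-, counts of 1, 4, 3 and 3 at 1.5-fold became 0, 2, 1 and 1 at a fold of 2 and 3, 6, 5 and 5 at a lower threshold of 0.32 on the log2 scale. For the genotype labels in DMSO, tunicamycin and thapsigargin, 1, 3 and 4 became 0, 1 and 3 at a fold of 2 and 4, 5 and 6 at that lower threshold. In the remaining pair 1 stayed 1 at a fold of 2 and became 3 at the lower threshold, and the other pairs stayed at 0. The share of all loci past 1.5-fold ran from 3.4 to 41.2% over the comparisons, from 3.895 to 17.5% with no filter, from 1.75 to 35.3% with a mean of at least 5 FPKM, and from 1.47 to 29.7% with a mean of at least 50 FPKM, a filter chosen after seeing the data. The spread between libraries, and so the error of every value, is unknown.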
